A study of Mus musculus with 5 samples.

Results

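The genes described here are 5 steroid hormone receptors, 2 co-chaperones that tune them and 2 hormone-induced regulators of transcription: Esr1, Esr2, Pgr, Nr3c1, Nr3c2, Fkbp4, Fkbp5, Tsc22d3 and Zbtb16. They were chosen by name, and all 9 were found, each under 1 gene ID, among the 51912 gene IDs of the deposited tables. RNA was sequenced from tissue labelled dorsolateral prostate of male mice aged 7 months. Every animal was homozygous for a floxed growth hormone receptor allele (Ghrflox/flox), carried the SV40 C3(1) T-antigen transgene (+/0), in which the C3(1) promoter drives a viral oncoprotein in the prostate, and received 250 mg/kg tamoxifen on each of 5 days, with tissue taken 1 month after the last injection. The 3 Ghr deletion libraries came from mice that also carried ROSA26Cre-ERT2 (+/0), and the labels of the 2 tamoxifen controls list no Cre, so Ghr deletion and the presence of Cre-ERT2 cannot be told apart. The question was how transcripts of the tissue differed with the deletion. The series calls the libraries of each group biological replicates.

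Steroid receptors are transcription factors that a hormone switches on. Unbound glucocorticoid, mineralocorticoid and progesterone receptors are held in a hormone-ready shape by HSP90 with FK506-binding co-chaperones, and the bound receptor activates genes at hormone response elements. In the prostate, oestrogen receptor alpha (Esr1) is known mainly from stroma and oestrogen receptor beta (Esr2) mainly from epithelium. Tamoxifen is itself a ligand of the oestrogen receptors, and Cre-ERT2 is Cre joined to a mutated hormone-binding domain of the human oestrogen receptor alpha. Whether Cre-ERT2 transcripts added reads to mouse Esr1 was not tested.

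To show what such elements look like beside the genes, promoter windows from RefSeq (GRCm38.p6; 250 bases before to 50 after a start) were searched on both strands for the full glucocorticoid response element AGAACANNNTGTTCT, its single arm TGTTCT, the full oestrogen response element GGTCANNNTGACC and its single arm GGTCA. Windows of 7 of the 9 genes were searched, 10 windows in all, and none was searched for Nr3c1 or Zbtb16. None of the 10 held a full element of either kind, 1 held the glucocorticoid arm and 5 held the oestrogen arm. Over all 32851 windows these letters occurred in 0.00913% and 0.07% for the full elements and in 19.0% and 40.5% for the arms. Of the 20 corticosteroid response genes used below, 16 had a window, and 1 of their 26 windows held the full glucocorticoid element, that of Sgk1, a kinase gene. The windows below, chosen because they hold matches, belong to both oestrogen receptors, Tsc22d3 and Sgk1, while the windows of Pgr, Fkbp4 and Fkbp5 held none of these letters. Capitals mark arms and full elements, the full element contains its own arms, and a match is only a match of letters.
Esr1 (chr10:4611739-4612038, plus strand): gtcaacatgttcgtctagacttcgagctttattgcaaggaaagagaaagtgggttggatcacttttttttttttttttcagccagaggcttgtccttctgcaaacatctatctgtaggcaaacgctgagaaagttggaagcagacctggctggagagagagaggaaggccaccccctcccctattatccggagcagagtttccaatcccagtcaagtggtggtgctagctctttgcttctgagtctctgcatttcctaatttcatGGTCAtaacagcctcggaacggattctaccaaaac
Esr2 (chr12:76177210-76177509, minus strand): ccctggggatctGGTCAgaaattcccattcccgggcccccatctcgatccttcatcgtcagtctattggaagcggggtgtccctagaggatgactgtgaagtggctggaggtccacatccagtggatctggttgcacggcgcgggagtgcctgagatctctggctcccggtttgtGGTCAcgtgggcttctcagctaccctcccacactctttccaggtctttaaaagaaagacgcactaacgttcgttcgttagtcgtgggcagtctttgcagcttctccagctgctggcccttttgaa
Tsc22d3 (chrX:140600473-140600772, minus strand): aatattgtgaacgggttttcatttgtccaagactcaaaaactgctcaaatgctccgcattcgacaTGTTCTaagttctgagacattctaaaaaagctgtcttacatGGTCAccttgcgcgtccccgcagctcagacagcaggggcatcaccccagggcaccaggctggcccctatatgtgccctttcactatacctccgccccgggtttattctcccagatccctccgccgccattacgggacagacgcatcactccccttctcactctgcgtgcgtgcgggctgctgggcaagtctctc
Sgk1 (chr10:21993640-21993939, plus strand): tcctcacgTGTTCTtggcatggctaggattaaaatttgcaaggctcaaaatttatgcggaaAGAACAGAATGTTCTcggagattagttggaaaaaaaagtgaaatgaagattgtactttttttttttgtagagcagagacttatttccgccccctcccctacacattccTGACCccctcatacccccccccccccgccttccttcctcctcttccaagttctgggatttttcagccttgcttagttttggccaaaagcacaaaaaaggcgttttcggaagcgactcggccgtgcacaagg

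The libraries differed widely in their levels of tissue marker transcripts, within groups as well as between them. Whether the amount of each tissue or its expression of these markers differed was not tested. Total counts ran from 13812454 to 47656212 per library. The prostate secretory gene Pbsn (probasin) had 411 counts in control replicate 1 and 1 to 8 counts in the other 4 libraries. Msmb had 263 counts in control replicate 1 and at most 1 in the others, so the labelled tissue was scarcely marked in those 4. Prostate secretory markers were also few in control replicate 1 beside those of seminal vesicle, with sums of 62.975 and 625580 CPM. In the other 4 libraries the prostate sum was 1.0166 to 2.3178 CPM. Seminal vesicle markers summed to 625580 and 18343 CPM in control replicates 1 and 2. In deletion replicates 1, 2 and 3 the sums were 274340, 341370 and 8834 CPM. Of these markers, Svs2, Svs5 and Pate4 were lower in control replicate 2 and deletion replicate 3 than in the other libraries. Svs3a, Svs4, Svs6 and Spinkl were instead lower in deletion replicates 1 and 2 than in control replicate 2. Vas deferens and epididymis markers, nearly all of them Akr1b7 and Crisp1, summed to 6.33 and 1603 CPM in both controls, against 5149, 4360 and 34.2 CPM after deletion, while the epididymal genes Lcn5 and Lcn8 had at most 2 counts in any library. Values of single libraries are given throughout in the order of the replicate numbers. These sums are set beside the genes that move with them, and their part in each result was not tested unless a value is given.

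All 9 genes passed the filter on low counts, and none passed the test between groups (edgeR quasi-likelihood test with Benjamini-Hochberg adjustment over 18615 genes; adjusted p of 0.991 to 0.997). Over all genes 0% passed by edgeR and 0.899% by DESeq2, which also passed 0 of the 9. An unadjusted p under 0.05 was reached by 1 of the 9, Esr1, on the lower side, against 4.92% of all genes in either direction and 3.23% on that side. The groups did not overlap for Esr1, on the lower side, and Nr3c2, on the higher side, against 10.2% and 9.43% of all genes on those sides and 19.6% on either. The median log2 fold change of the 9 was 0.13 and that of all genes 0.0045. With 2 libraries against 3, an exact two-sided permutation test of a single gene cannot give less than p = 0.1, which it gave for Esr1 and Nr3c2. Only a gene whose groups do not overlap can reach that value, so it is no separate support.

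**Figure D1:**
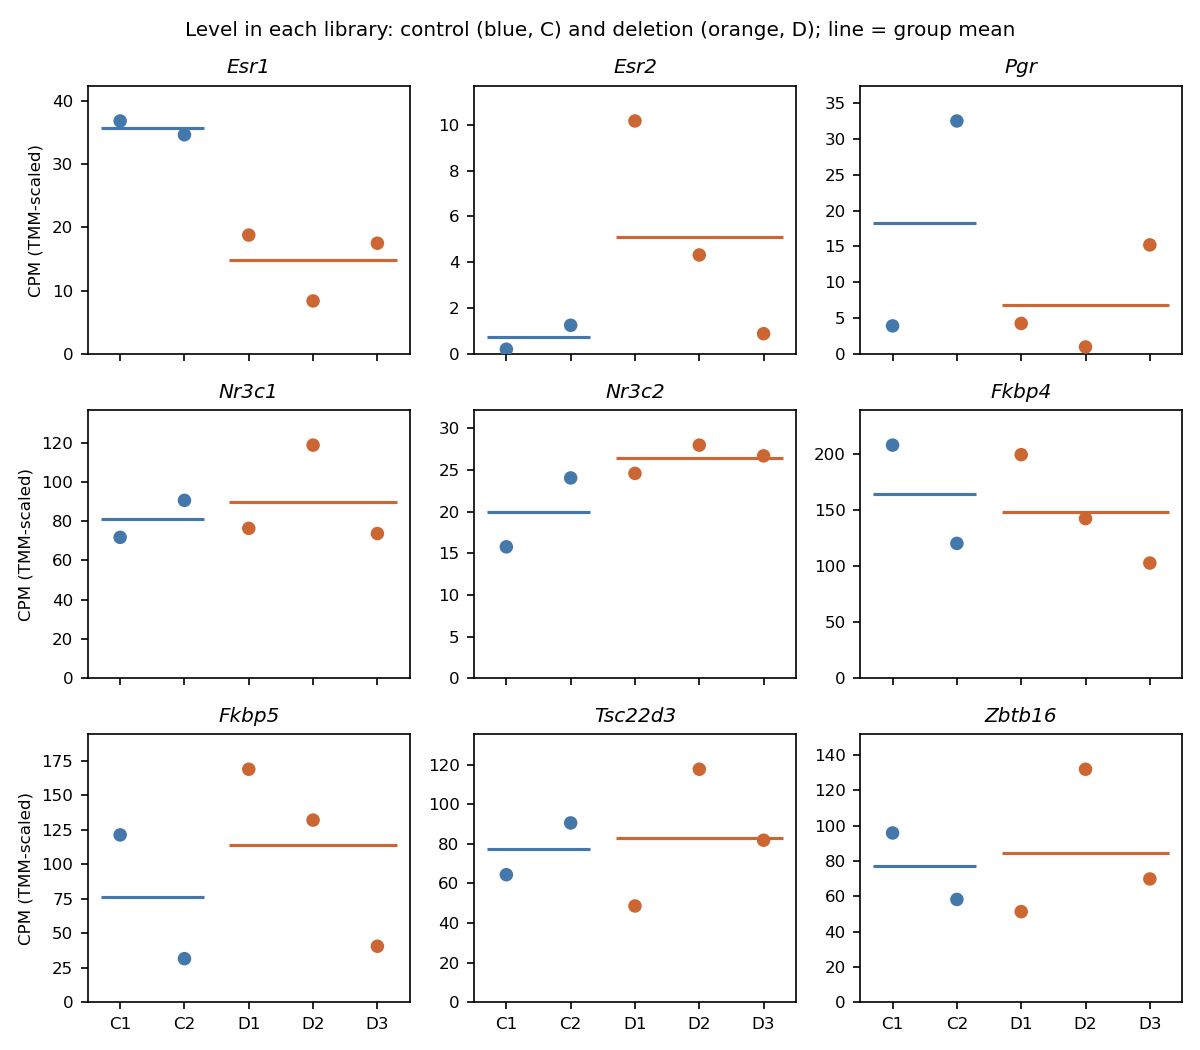
Level of each gene in CPM (vertical axis, starting at 0) in control replicates 1 and 2 (C1 and C2, blue) and deletion replicates 1, 2 and 3 (D1 to D3, orange); points are libraries and lines are group means. Deletion libraries lay below both controls for Esr1 and above both for Nr3c2, and groups overlapped for the other 7 genes.

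**Figure D2:**
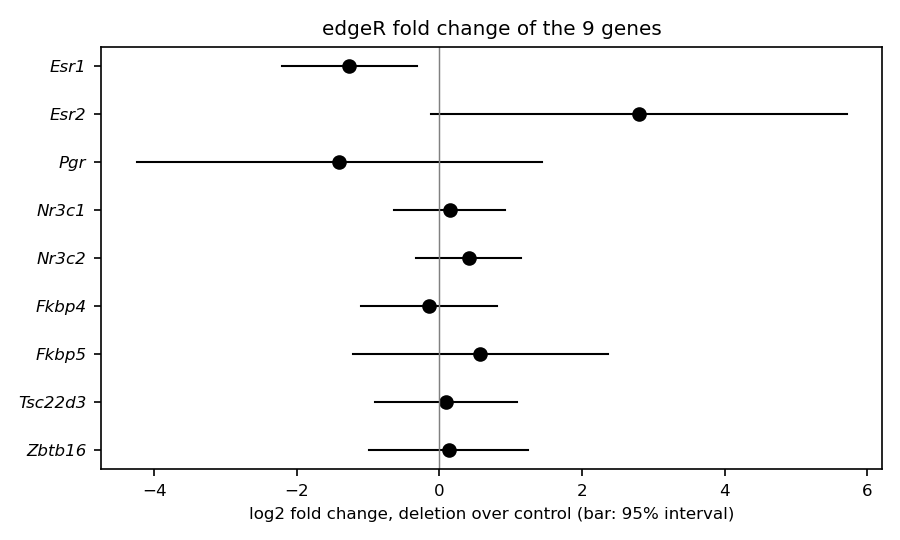
Log2 fold change of deletion over control (horizontal axis) from edgeR for the 9 genes, with approximate 95% intervals from the test. The interval of Esr1 ran from -2.21 to -0.31, and those of the other 8 genes spanned 0.

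Esr1, which encodes the alpha form of the oestrogen receptor, was the receptor with the clearest separation between groups. It lies on the plus strand of chromosome 10 from 4611593 to 5005614 (GRCm38). It read 36.8 and 34.6 CPM in both controls, against 18.8, 8.39 and 17.5 CPM after deletion, so every deletion library was at or below 18.8 CPM and the controls lay close together. The means were 35.7 ± 1.54 (SD, n = 2) and 14.9 ± 5.67 CPM (SD, n = 3), a log2 fold change of -1.26 (SE 0.398; edgeR, unadjusted p = 0.0169, adjusted p = 0.991). Leaving out any 1 library gave values from -1.45 to -0.98.

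Summed fibroblast markers were lower in the same libraries, although the groups overlapped for Dcn, Lum and Pdgfra and not for the others listed. All 8 (Col1a1, Col1a2, Col3a1, Dcn, Lum, Pdgfra, Thy1 and Sparc) had a negative fold change, with a median of -1.64, and they summed to 399 and 596 CPM in both controls, against 296, 99.6 and 244 CPM after deletion. Per unit of that sum, Esr1 stood at 0.0922 and 0.0580 in both controls, against 0.0635, 0.0843 and 0.0716 after deletion, and there the groups overlapped. Dcn, a large part of that sum, read 88.5 and 253 CPM in both controls, against 100, 48.5 and 119 CPM after deletion. All 6 T cell markers and all 6 macrophage markers also had negative fold changes. The T cell sum was 6.85 and 11.9 CPM against 2.77, 1.72 and 3.49 CPM, and the macrophage sum 61.2 and 94.6 CPM against 42.7, 38.7 and 47.1 CPM. Smooth muscle markers, at 1785 and 3098 CPM against 4405, 1197 and 2730 CPM, overlapped between groups. What part these cells had in the Esr1 difference was not tested. The genes whose pattern over the 5 libraries was most like that of Esr1 were Dpt (dermatopontin) and Fbn1 (fibrillin-1), both extracellular matrix genes, and Arap3. Likeness was the root mean square difference of log2 CPM after subtracting each gene's mean. It was here 0.0726, 0.103 and 0.113, where Esr1 itself varied by 0.771 about its mean. Here and below, such genes were the closest of 12510 over only 5 libraries. How close they would come without any link to the gene was not tested. In whole tissue, fewer cells of a type and less RNA per cell cannot be told apart.

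Esr2, the beta form, was the least abundant receptor of the controls. Its gene spans 76120419 to 76177259 of chromosome 12, minus strand. It had 5 and 26 counts in both controls, or 0.214 and 1.26 CPM, against 290, 138 and 48 after deletion, or 10.2, 4.32 and 0.891 CPM. Deletion replicates 1 and 2 were high, and deletion replicate 3 lay between the controls. The log2 fold change was 2.80 (95% interval -0.11 to 5.71, SE 1.22; edgeR, adjusted p = 0.991), and it ran from 1.84 to 4.56 when 1 library was left out. Ordered by level, the 5 libraries stood in the same order for Esr2 and for the vas deferens and epididymis sum, although control replicate 2 had 1603 CPM of those markers and 1.26 CPM of Esr2. The genes of most alike pattern were Wfdc10, at 0.128 and 0.775 CPM against 5.05, 2.38 and 0.575 CPM, Gstm7, a glutathione transferase, and Mybpc1, a myosin-binding protein, with differences of 0.195, 0.427 and 0.427, where Esr2 varied by 1.75. A processed pseudogene, Gm7862, lies within Esr2 on the same strand.

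The balance of both oestrogen receptors, which does not depend on how a library is scaled, varied over a wide range. In the authors' TPM values (transcript abundance relative to length), the ratio of Esr2 to Esr1 was 0.00794 and 0.0620 in both controls, against 0.989, 0.958 and 0.0825 after deletion. Both receptors were thus near equal in deletion replicates 1 and 2, and Esr1 was far ahead in the other 3 libraries.

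Pgr, the progesterone receptor gene and a classical target of oestrogen receptor alpha, differed most within groups. It read 3.94 and 32.5 CPM in both controls, against 4.28, 1.00 and 15.2 CPM after deletion. Control replicate 2 and deletion replicate 3 were high, the same libraries in which the seminal vesicle sum was lowest. In that list, Svs3a, Svs4, Svs6 and Spinkl were higher in control replicate 2 than in deletion replicates 1 and 2. The log2 fold change was -1.41 (SE 1.18; edgeR, adjusted p = 0.995) and turned to 0.79 without control replicate 2. The ratio of Pgr to Esr1 in TPM was 0.835 in control replicate 2 and 0.716 in deletion replicate 3. It was 0.0873, 0.211 and 0.137 in control replicate 1 and deletion replicates 1 and 2. Genes of most alike pattern were Inhba, an activin subunit, the adaptor gene Fyb and Prr5l, with differences of 0.284, 0.432 and 0.432, where Pgr varied by 1.69.

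Nr3c1, the glucocorticoid receptor gene, was the steadiest of the 9 genes. It read 71.8 and 90.6 CPM in both controls, against 76.4, 119 and 73.7 CPM after deletion, a span of 1.65-fold. Deletion replicate 2 was highest and the groups overlapped. The log2 fold change was 0.14 (95% interval -0.64 to 0.92, SE 0.326; edgeR, adjusted p = 0.996), and it was -0.11 without deletion replicate 2. Zfp800 and Cenpq had the most alike patterns of those reported, with differences of 0.0129 and 0.0249.

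Nr3c2, the mineralocorticoid receptor gene, read 15.8 and 24.1 CPM in both controls, against 24.6, 28.0 and 26.7 CPM after deletion. All deletion libraries lay above both controls, with deletion replicate 1 just above control replicate 2. The means were 19.9 ± 5.85 (SD, n = 2) and 26.4 ± 1.71 CPM (SD, n = 3), a log2 fold change of 0.41 (SE 0.308; edgeR, unadjusted p = 0.229, adjusted p = 0.995). Without control replicate 1 it was 0.14. Wdr1, Nf1 and Bbip1 had the most alike patterns, with differences of 0.0181, 0.0356 and 0.0380, where Nr3c2 varied by 0.293.

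Within each library the receptors could be ordered by TPM, which are relative to gene length. Nr3c1 was the most abundant of the 5 receptors in all 5 libraries, at 2.36 and 16.9 TPM in both controls, against 7.82, 13.9 and 25.8 TPM after deletion. It was 2.11 to 3.93 times as abundant as Nr3c2. Esr1 came second in both controls, at 1.26 and 6.61 TPM, and stood behind Nr3c2 in all 3 deletion libraries, at 1.80, 0.95 and 6.79 TPM. The ratio of Nr3c2 to Esr1 was 0.476 and 0.776 in both controls, against 1.56, 4.04 and 1.80 after deletion, with no overlap between groups. On the CPM scale Esr1 lay below and Nr3c2 above both controls, so this separation restates those results. Esr2 was last in both controls and deletion replicate 3, and Pgr was last in deletion replicates 1 and 2.

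Fkbp4 encodes FKBP52, a co-chaperone that promotes hormone binding and transport of the receptors. In TPM it was the most abundant of the 9 genes in every library, at 24.7 and 95.7 in both controls, against 77.8, 74.9 and 142 after deletion. On the CPM scale it read 208 and 120 against 199, 142 and 103. The groups overlapped, and the log2 fold change was -0.15 (SE 0.399; edgeR, adjusted p = 0.997), a direction that several other settings turned. Mccc2, Mrpl4 and Qsox2 had the most alike patterns, with differences of 0.0714, 0.0741 and 0.0758, where Fkbp4 varied by 0.399.

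Fkbp5 encodes FKBP51, which opposes FKBP52 at the glucocorticoid receptor and is itself induced by glucocorticoids, progestins and androgens. It read 121 and 31.7 CPM in both controls, against 169, 132 and 40.6 CPM after deletion. Control replicate 1 and deletion replicates 1 and 2 were high and the others low. The high libraries were the 3 with the highest seminal vesicle sum, an order that Svs3a, Svs4, Svs6 and Spinkl did not follow. The log2 fold change was 0.57 (95% interval -1.22 to 2.36, SE 0.746; edgeR, adjusted p = 0.995), and leaving out control replicate 2 gave -0.093 and leaving out control replicate 1 gave 1.85. The TPM ratio of Fkbp4 to Fkbp5 was 2.89 and 6.32 in both controls, against 1.99, 1.94 and 3.63 after deletion. Mlxipl (a glucose-sensing transcription factor), Slc2a1 (a glucose transporter) and Eif4ebp1 (a repressor of translation) had the most alike patterns, with differences of 0.230, 0.246 and 0.267, where Fkbp5 varied by 0.976.

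**Figure D3:**
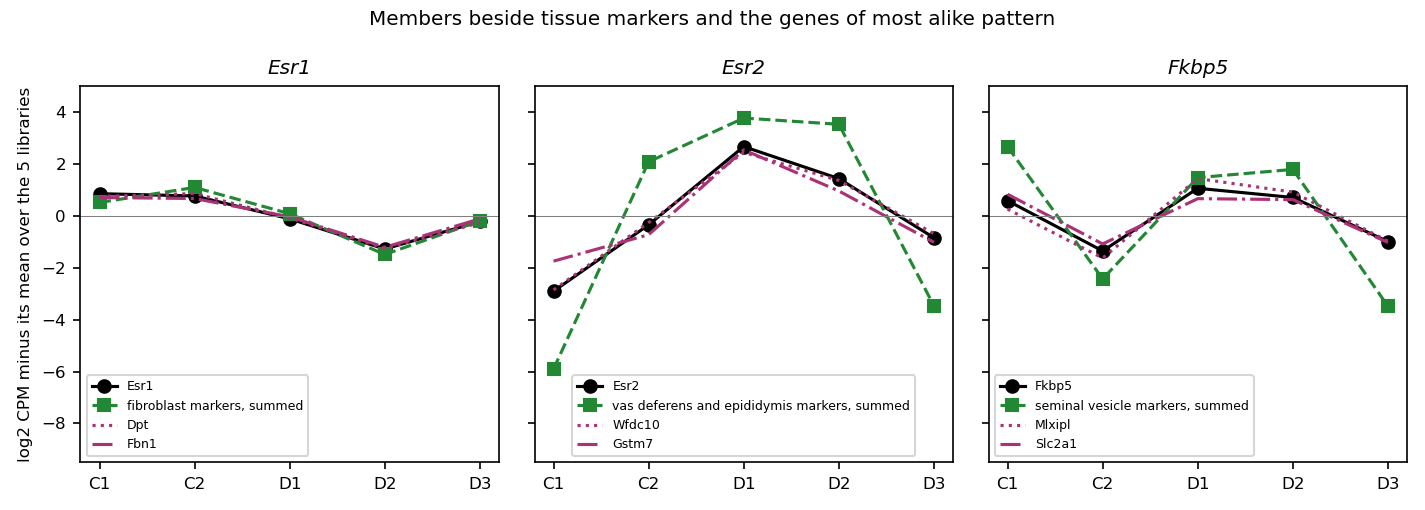
Log2 CPM minus its mean over the 5 libraries (vertical axis) for Esr1, Esr2 and Fkbp5 (black), a summed marker list (green) and the 2 genes of most alike pattern (purple) in control replicates 1 and 2 (C1, C2) and deletion replicates 1 to 3 (D1 to D3). Esr1 and the fibroblast sum were both lowest in deletion replicate 2. Esr2 and the vas deferens and epididymis sum were both highest in deletion replicate 1. Fkbp5 and the seminal vesicle sum were both low in control replicate 2 and deletion replicate 3. Within that sum, Svs3a, Svs4, Svs6 and Spinkl were instead lower in deletion replicates 1 and 2 than in control replicate 2.

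Tsc22d3 encodes GILZ, a leucine zipper protein that carries part of the anti-inflammatory action of glucocorticoids. It read 64.4 and 90.5 CPM in both controls, against 48.6, 118 and 81.8 CPM after deletion. Deletion libraries held both the lowest and the highest value. The log2 fold change was 0.094 (SE 0.417; edgeR, adjusted p = 0.997). Tpm4, Vopp1 and Jak1 had the most alike patterns, with differences of 0.0670, 0.0717 and 0.0742, where Tsc22d3 varied by 0.433.

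Zbtb16 encodes PLZF, a transcriptional repressor induced by glucocorticoids, progestins and androgens. It read 95.8 and 58.2 CPM in both controls, against 51.3, 132 and 69.8 CPM after deletion. Deletion replicate 2 was again highest and deletion replicate 1 lowest, with both controls between them. The log2 fold change was 0.13 (SE 0.467; edgeR, adjusted p = 0.997), and it was -0.35 without deletion replicate 2. The gene of most alike pattern was Nfkbia, the inhibitor of NF-kappa-B and itself a glucocorticoid-induced gene, at 42.5 and 26.4 CPM against 23.5, 59.9 and 28.3 CPM, with a difference of 0.0649 where Zbtb16 varied by 0.495. Tprn and Rp9 followed, at 0.0993 and 0.122. In TPM, Tsc22d3 stood at 1.99 to 3.39 times Nr3c1 and Zbtb16 at 0.939 to 1.98 times Nr3c1 over the 5 libraries.

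Genes that corticosteroids are known to induce leaned higher as a list, and 1 library carried that lean. Of the 20 genes, all of them tested and Fkbp5, Tsc22d3 and Zbtb16 among them, 18 had a positive and 2 a negative fold change, and the median of their log2 fold changes was 0.91 against 0.0045 for all genes. By edgeR 0 passed over all genes, 2 had an unadjusted p under 0.05, both higher (1.69% of all genes on that side), and groups did not overlap for 2, both higher, or 10.0% of the list against 9.43% of all genes on that side. Deletion replicate 2 was the highest library for 16 of the 20, where it was highest for 26.9% of all genes. Among the lists described below, it was highest for 8 of 14 coregulators and 6 of 13 steroid enzymes. For HSP90 chaperones it was 6 of 18, for oestrogen response genes 3 of 16 and for oestrogen-related receptors 1 of 2. Without deletion replicate 2 the corticosteroid median was -0.27. With all libraries that median was 0.37 by limma-voom and 0.55 on TPM centred on the median gene.

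By the smallest p, the leading genes on the higher side were Pdk4, a kinase that restrains pyruvate oxidation, at 1.80 and 6.87 CPM against 4.63, 38.8 and 27.3 CPM, Scnn1a, a subunit of the epithelial sodium channel, and Angptl4, an inhibitor of lipoprotein lipase. Scnn1a read 5.01 and 3.24 CPM against 9.04, 19.2 and 5.87 CPM, and Angptl4 2.01 and 3.05 CPM against 3.26, 19.1 and 5.38 CPM. Pdk4 overlapped between groups. For Scnn1a and Angptl4, all deletion libraries lay above both controls and deletion replicate 2 stood highest. The lower genes were Ddit4, an inhibitor of mTORC1, and Lcn2, lipocalin 2, at log2 fold changes of -1.28 (SE 0.786) and -0.80 (SE 1.17). Further examples, chosen after their values were seen, show the weight of deletion replicate 2. Per1, a clock gene, read 36.1 and 34.6 CPM in both controls, against 17.0, 197 and 23.2 CPM after deletion. Sgk1, whose window above held the full glucocorticoid element, read 941 and 784 CPM against 1949, 5714 and 779 CPM. Klf9, a transcription factor gene, read 72.1 and 57.1 CPM against 60.6, 258 and 44.2 CPM. For all 3 of these genes deletion replicate 3 lay below both controls, while deletion replicate 1 lay below, above and between them. The sum of adipocyte markers was also highest in deletion replicate 2, at 36.9 CPM, but deletion replicate 3 had 32.6 CPM. Fabp4 made up most of both sums, at 32.7 and 28.8 CPM. Adipoq was also highest in deletion replicate 2, while Cidec and Plin1 were highest in deletion replicate 3.

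**Figure D4:**
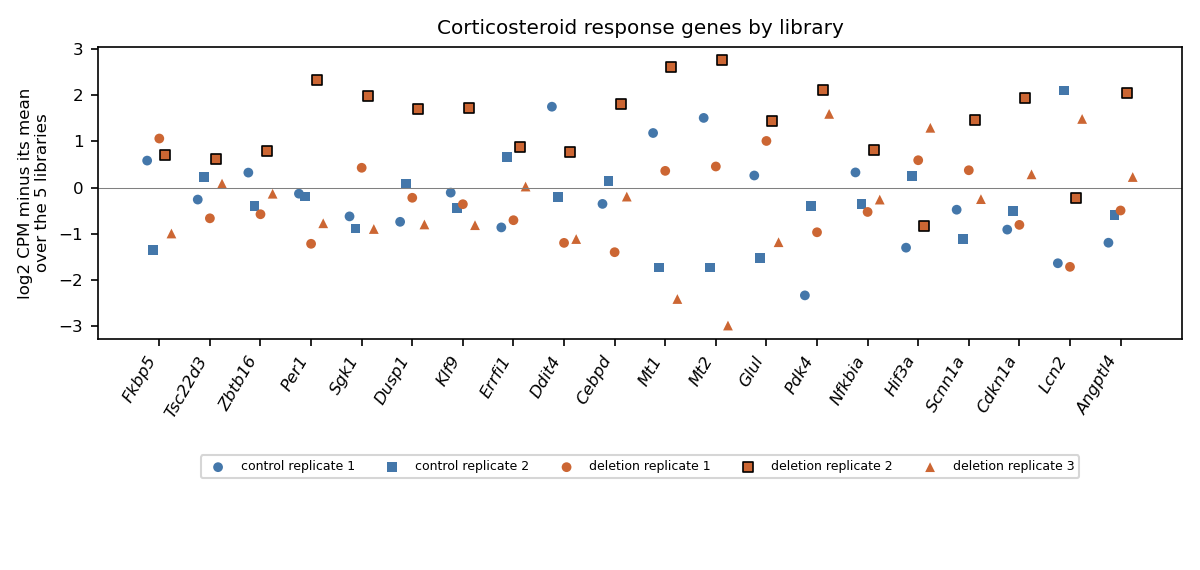
Log2 CPM minus its mean over the 5 libraries (vertical axis) for the 20 corticosteroid response genes, with 1 point per library (controls blue, deletion orange; deletion replicate 2 outlined). Deletion replicate 2 was the highest library for 16 of the 20 genes. The groups overlapped for all genes but Scnn1a and Angptl4, where every deletion library lay above both controls.

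Oestrogen response genes showed no common direction. Of 18 listed genes 16 were tested, 8 lower and 8 higher, and the median of their log2 fold changes was -0.12. By edgeR 0 passed, and DESeq2 passed 1, Greb1. An unadjusted p under 0.05 was reached by 3 lower and 2 higher genes, where 3.23% and 1.69% of all genes did so. The deletion libraries lay wholly below the controls for 3 genes (Igfbp4, Myb and Stc2, the last named after its values were seen) and wholly above for 2, against 10.2% and 9.43% of all genes. Igfbp4, a binding protein of insulin-like growth factors, read 14.1 and 22.7 CPM in both controls, against 7.89, 6.80 and 7.55 CPM after deletion. Greb1, a cofactor of oestrogen receptor alpha, read 88.6 and 2.86 CPM against 3.50, 0.282 and 1.71 CPM, so that control replicate 1 alone was high and the groups overlapped. Its log2 fold change was -4.65 by edgeR and -0.64 without control replicate 1, and its adjusted p was 0.0223 by DESeq2 and 0.125 to 1.00 over the other settings. Myb, a transcription factor gene, read 1.75 and 0.968 CPM against 0.456, 0.564 and 0.260 CPM. On the higher side, Wnt4, a signalling ligand, read 9.03 and 13.1 CPM against 29.0, 22.5 and 15.0 CPM, and Nrip1, a corepressor of nuclear receptors, 182.8 and 186.3 CPM against 316.9, 418.5 and 249.4 CPM. Xbp1, a factor of the unfolded protein response, followed at a log2 fold change of 0.57 (SE 0.362). Tff1 had 0 counts in every library and Areg too few to be tested.

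Differences in the wider machinery around the receptors were small. Among 18 HSP90 chaperone genes, Fkbp4 and Fkbp5 included, 8 were lower and 10 higher, their median was 0.098 on the log2 scale, and 0 passed by edgeR or had an unadjusted p under 0.05. Hsp90ab1, the constitutive HSP90 gene, read 549 and 828 CPM in both controls, against 517, 724 and 684 CPM after deletion. The leading members were Hspa4 and Ptges3 on the higher side beside Fkbp5, at log2 fold changes of 0.32 and 0.25, and Stub1, Unc45a and Fkbp4 on the lower side, at -0.26, -0.22 and -0.15. Groups did not overlap for 1, Ahsa1, an activator of HSP90, on the higher side. That is 5.56% of the list against 9.43% of all genes. Of 14 coregulator genes, 3 were lower and 11 higher, with a median of 0.12. Groups did not overlap for 3 higher genes, Nrip1, the coactivator Ncoa3 and the acetyltransferase Crebbp, and for 1 lower, Pelp1, which is 21.4% and 7.14% of the list against 9.43% and 10.2% of all genes. Among coregulators only Nrip1 had an unadjusted p under 0.05 (0.0482; edgeR, adjusted p = 0.991). Ncoa3 read 66.2 and 68.5 CPM against 84.2, 118 and 78.2 CPM. Carm1, another lower member, stood at a log2 fold change of -0.0062.

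Of 18 listed genes for enzymes that make or remove active steroid, 13 were tested, 4 lower and 9 higher, their median was 0.47 on the log2 scale, and 0 passed by edgeR or had an unadjusted p under 0.05. Srd5a1, a steroid 5-alpha-reductase, read 0.941 and 0.968 CPM in both controls, against 1.26, 0.658 and 13.1 CPM after deletion, so deletion replicate 3 alone was high, the library in which urothelium markers were also highest (187 CPM against 25.2 to 80.0). Groups did not overlap for Hsd17b12, at 19.0 and 30.1 CPM against 30.5, 50.8 and 42.0 CPM, and H6pd, which supplies cofactor to the glucocorticoid-activating enzyme, at 27.3 and 45.7 CPM against 49.98, 48.5 and 64.6 CPM, which is 15.4% of the list, all on the higher side, against 9.43% of all genes. That enzyme's gene, Hsd11b1, read 1.37 and 5.76 CPM against 2.52, 2.72 and 3.25 CPM, and Hsd11b2, which inactivates glucocorticoids, 0.128 and 2.32 CPM against 0.421, 0.438 and 0.501 CPM. Hsd17b11 stood at a log2 fold change of -0.28. The aromatase gene Cyp19a1 had at most 1 count in any library. Of the oestrogen-related receptors, orphan relatives of Esr1, Esrra and Esrrg were tested, at log2 fold changes of -0.84 (SE 0.502) and 1.01 (SE 1.06), and neither passed by edgeR (adjusted p = 0.995 for both).

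The scale mattered for these comparisons. On the authors' TPM the median gene stood higher in the deletion libraries by 0.91 on the log2(TPM + 0.1) scale, so TPM differences are read against that shift. On uncorrected TPM Esr1 read 1.26 and 6.61 against 1.80, 0.95 and 6.79 and its groups overlapped, as did those of Nr3c2, while Esr2 and Fkbp5 no longer overlapped. With each library shifted to the same median gene, a choice made after seeing the data, Esr1 stood at -1.26 and Nr3c2 at 0.52, again without overlap, while Esr2 stood at 1.26 with overlapping groups, against 2.80 by edgeR.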

How the data were processed

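The labels' protocols name flash-frozen tissue, a NucleoSpin RNA kit and the TruSeq Stranded Total RNA preparation. Software in the submitters' processing notes was bcl2fastq (2.20.422), STAR (2.5.3a) and RSEM (1.3.0), with the build GRCm38. No annotation release or strand setting is given in these sources, so genes that overlap others (Esr2, Nr3c2 and Fkbp5) could share reads. The authors deposited expected counts from RSEM for each library, without normalization, per the file headers. They also deposited TPM, in which abundance is divided by transcript length and scaled within a library.

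Symbols were matched for 99.5% of gene IDs, and positions came from GENCODE M21. After rounding, the counts of the 5 libraries went into 1 fit in edgeR (version 4.0.16, under R 4.3.3) with filterByExpr, TMM, glmQLFit with the robust option and glmQLFTest on the group, with 0.05 as the limit on Benjamini-Hochberg adjusted p. Standard errors and intervals were derived from the F statistic. TMM factors ran from 0.491 to 1.61. DESeq2 1.42.0, limma 3.58.1 and other scalings were alternatives. Single genes were also tested by exact permutation of log2(CPM + 0.1). Likeness of pattern was ranked among 12510 named genes of at least 1 CPM.

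Groups came from sample titles. Named genes were the 9 members, the 3 of smallest p in each direction of each other list, and the 3 of most alike pattern for each member. A few genes that this rule names are not reported here. Members and lists were chosen with earlier results of these data known. Over all genes the median SE on the log2 scale was 0.529, and 3 counts stood for 0.0557 to 0.145 CPM. Sts was not analysed here.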

Additional observations from a re-analysis of the deposited data

How the results depend on the processing

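With 2 controls, the spread between animals limits every comparison, and the fits that leave out a control assume that the lone control varies like the deletion libraries. Over 15 alternatives, no fold change of the 9 genes passed an adjusted p of 0.05, and 117 of 135 values kept their sign. Esr1, Esr2 and Nr3c2 kept theirs in all 15. The number of genes called over all genes was 0 in edgeR, 164 in DESeq2, 12 and 11 in limma on log2(TPM + 0.1) and log2(TPM + 1), 2 in limma on median-centred TPM (added after seeing the data), 85 without control replicate 1 and deletion replicate 3, and 0 to 48 when 1 library was left out (48 without control replicate 2).

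Leaving out 1 library gave log2 fold changes of -2.80 to 0.79 for Pgr, -0.11 to 0.32 for Nr3c1, -0.49 to 0.30 for Fkbp4, -0.093 to 1.85 for Fkbp5, -0.25 to 0.38 for Tsc22d3 and -0.35 to 0.53 for Zbtb16. Fkbp4 turned to 0.95, 0.93 and 0.023 in the same 3 TPM fits and to 0.50 without control replicate 1 and deletion replicate 3, Tsc22d3 to -0.13 without those libraries, where Pgr moved to -3.63 and Fkbp5 to 2.24 (edgeR, adjusted p = 0.154 and 0.171) and neither overlapped, and Zbtb16 to -0.072 on median-centred TPM. Between 2 and 5 of the 9 genes had non-overlapping groups when 1 library was left out, where 30.3% to 56.2% of all genes did not overlap. The 5 were found without control replicate 2, the fit in which that share was 56.2%. Without control replicate 1 and deletion replicate 3 the count was 6 of the 9, against 67.8% of all genes. Smaller groups overlap less often by construction.

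List medians ran from -0.27 to 1.29 for corticosteroid response, -0.59 to 0.66 for oestrogen response, 0.27 to 1.02 for steroid enzymes and -0.11 to 1.703 for oestrogen-related receptors with 1 library left out. Oestrogen response stood at -0.79 without control replicate 1 and deletion replicate 3, and oestrogen-related receptors at 1.02 with no low-count filter. On log2(TPM + 0.1), where the median gene stood at 0.91, the medians were 0.54 for oestrogen response, 1.11 for HSP90 chaperones, 1.26 for coregulators, 1.35 for steroid enzymes and 1.33 for oestrogen-related receptors. On log2(TPM + 1), where it stood at 0.54, they were 1.03, 1.13 and 0.97 for chaperones, coregulators and steroid enzymes.

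Replicate numbers are shared between groups, but nothing ties same-numbered animals together. Deviations of same-numbered libraries correlated at 0.118 and -0.133 over genes, and those of differently numbered libraries at -0.238 to 0.238. With 2 controls, the deviations of 1 mirror those of the other, so these values are not separate checks. With the replicate number as a block, 8 genes were called over all genes and 0 of the 9, Fkbp4 turned to 0.092 and Tsc22d3 to -0.013. In that fit Fkbp5 moved to 1.27 and Pgr to -2.42 (edgeR, adjusted p = 0.808 and 0.999), and the median of the oestrogen-related receptors to 0.74. Apart from the shifts built into uncorrected TPM and into smaller groups, the cause of these changes was not tested.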
